A study of Mus musculus with 4 samples.

Results

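The semaphorin, Slit and netrin families, with the plexin, neuropilin, Robo, Unc5 and Dcc receptors that read them, were followed in cochleas of *Meis2* mutant and wild-type embryos. They were taken by gene symbol, as every gene whose array annotation gave the single symbol of a class 3 to 7 semaphorin, a plexin, a neuropilin, *Slit1* to *Slit3*, *Robo1* to *Robo4*, a netrin (*Ntn1* to *Ntn5*), *Unc5a* to *Unc5d* or *Dcc*. The rule reads symbols and no signal, but the families were chosen with earlier results of these data known. This gave 47 of the 19938 genes with a single symbol, read by 50 of the 35556 probe sets on the array. Of the 47, 27 encode ligands (20 semaphorins, 3 Slits and 4 netrins) and 20 encode receptors (9 plexins, 2 neuropilins, 4 Robos, 4 Unc5 receptors and *Dcc*).

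The study compared 2 samples of *Meis2* flox/flox; *Pax2* Cre/+ mutants (replicates 1 and 2) with 2 wild-type samples (replicates 2 and 3). The labels call the mutant samples *Meis2* ko, here *Meis2* mutant, and the others wild type. All were whole mouse cochleas at embryonic day 15 (E15), each measured on 1 Mouse Gene ST array from Affymetrix, on which a group of short probes spread over a transcript, a probe set, gives 1 signal. The Cre recombinase is driven by *Pax2* regulatory sequences and is active from the early otic placode and vesicle, so tissue of other origin within the sample keeps *Meis2*. Neither the labels nor the methods say for these arrays whether samples of 1 genotype came from separate embryos or from pools, so the p-values measure only the spread between arrays, which may be technical. Sex-linked genes set the arrays apart, and wild-type replicate 3 had high signals of both *Xist* and Y-linked genes, as given with the X-linked plexins. *Meis2* itself had log2 signals of 9.61 and 9.80 on the mutant arrays, against 9.64 and 9.38 on the wild-type arrays, a difference of 0.19 that was not past the threshold (adjusted p = 0.284, limma). How the genotype of each sample was determined is not given in the labels or the methods. The part of *Meis2* that the probe set reads relative to the floxed part was not checked. Below, "mutant arrays" means the arrays labelled *Meis2* ko.

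Guidance molecules steer growing axons and migrating cells by attraction or repulsion. Secreted class 3 semaphorins bind neuropilins, which signal through A-type plexins, whereas the membrane-bound classes mostly bind plexins directly. Slits repel through Robo receptors, and netrins attract through Dcc and repel through Unc5 receptors. In the inner ear these families are known for guiding and positioning spiral ganglion neurons and, in the case of netrin 1, for the formation of the semicircular canals. They also act outside the nervous system, above all in blood vessels.

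Values are the deposited log2 signals, and a difference is the mean of the mutant arrays minus the mean of the wild-type arrays, so that 1 unit is a 2-fold change. The test was that of limma, which fits a linear model to every probe set and steadies its variance with that of all the others, and a gene was called at an adjusted p under 0.05 over all 35556 probe sets. Where a gene had several probe sets, the brightest by its mean on the 4 arrays was taken for the gene. Array medians were 6.73 and 6.72 on the mutant arrays and 6.63 and 6.65 on the wild-type arrays, and Pearson's r over all probe sets was 0.9956 between mutant arrays, 0.9934 between wild-type arrays and 0.966 to 0.971 between genotypes. A probe set was taken as dim where both genotype means lay under the level of olfactory and vomeronasal receptor probe sets, 5.87 in mutant and 5.58 in wild type. By this measure 46 of the 47 guidance genes were above the dim level in at least 1 genotype, and only *Robo3* was dim. None of 8 markers of the cochlear duct epithelium, 6 of hair cells, 15 of ganglion neurons and 9 of periotic mesenchyme was dim in both genotypes. The same held for 10 markers of skeletal muscle, so this measure does not tell tissues apart.

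Most guidance genes had higher signals on the mutant arrays. Of the 47 genes, 25 rose (53.2%), 4 fell (8.51%) and 18 were not past the threshold. Over all probe sets, 21.6% were called higher and 15.7% lower. Over the genes with a single symbol, also read by the brightest probe set, these shares were 24.2% and 16.2%. When each array was shifted to a common median, 20 guidance genes were called higher and 4 lower. The calls lost were those of *Plxna2*, *Plxnc1*, *Sema3g*, *Sema6a* and *Unc5c* (adjusted p = 0.102, 0.0522, 0.0948, 0.0902 and 0.0836, limma), and the share of lower genes among all probe sets called was 56%, beside 42% on the values as deposited. The 25 that rose included 8 of the 9 plexins, *Slit1*, *Slit3*, *Ntn1* and *Ntn3*, and 11 of the 20 semaphorins, and the 4 that fell were *Nrp1*, *Robo2*, *Sema3a* and *Sema3e*. The median difference of the guidance genes was 0.37, beside 0.11 over all probe sets and 0.13 over the genes with a single symbol. It was 0.17 for the olfactory and vomeronasal receptor probe sets that set the dim level. Both mutant arrays lay above both wild-type arrays for 38 genes and below them for 4, whereas the genotypes overlapped for 5. Over all probe sets, the corresponding shares were 49.7% above and 26.4% below. Most differences were small. *Ntn3* and *Slit3* were past the threshold with a difference of 2-fold or more, as 1.72% of all probe sets were upwards, and no guidance gene was so downwards, as 4.41% of all probe sets were.

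Ligands and receptors both leaned upwards. Over the genes with a single symbol, 24.2% were called higher and 16.2% lower, with a median difference of 0.13. Of the 27 ligands, 15 rose (55.6%), 2 fell (7.41%) and 10 were not past the threshold, with a median difference of 0.41. Of the 20 receptors, 10 rose (50%), 2 fell (10%) and 8 were not past it, with a median of 0.36. The medians were 0.33 for ligands and 0.27 for receptors when each array was shifted to a common median. Ligands and receptors are not replicates, and the difference between them was not tested.

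**Figure D1:**
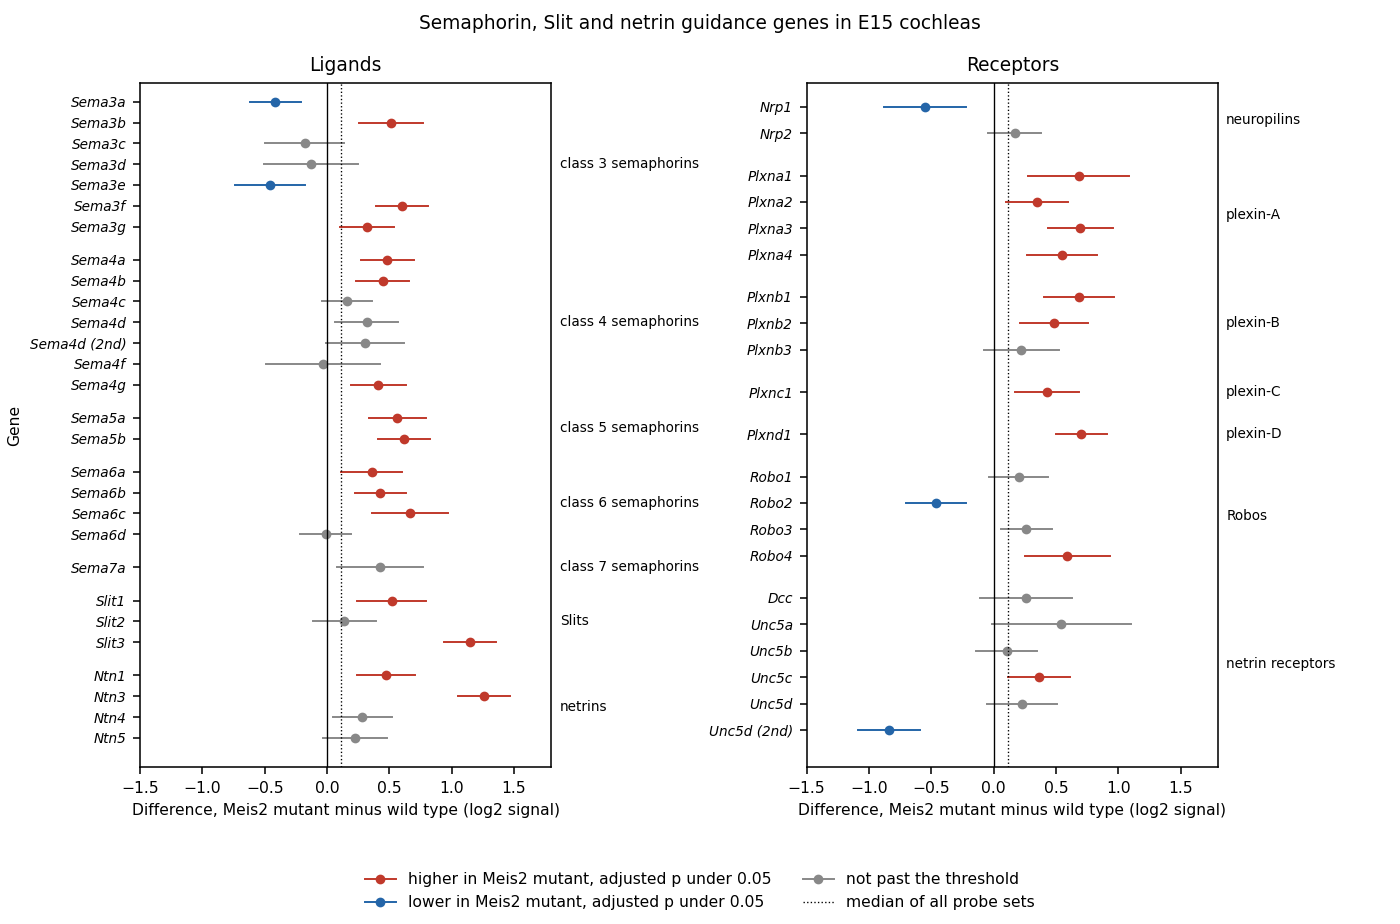
Difference between the arrays labelled *Meis2* ko and the wild-type arrays (log2 signal, mutant minus wild type) for each guidance ligand (left) and receptor (right), grouped by class. Points are limma estimates from 2 arrays per genotype, bars their 95% confidence intervals, the dotted line the median of all probe sets (0.11), and "2nd" a further probe set of the same gene. All 9 plexins lie to the right of 0, from 0.22 to 0.70, and the probe sets called lower are those of *Nrp1*, *Robo2*, *Sema3a* and *Sema3e* and the second of *Unc5d*.

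Most of these calls depended on single arrays. The number of guidance genes called higher was 8 without mutant replicate 1, 4 without mutant replicate 2, 19 without wild-type replicate 2 and 18 without wild-type replicate 3, with 1 array left in the genotype that lost one. The number called lower was 0, 0, 3 and 2 in the same order. Only *Ntn3*, *Slit3* and *Plxnd1* kept their call in every alternative tried, and none of the 4 genes called lower did. For each of the other 22 genes called higher at least 1 of the 4 single-array omissions ended the call, with the highest adjusted p between 0.053 (*Plxna3*) and 0.201 (*Plxna2*) in limma. When the test asked for a difference beyond 1.2-fold, 7 genes were called higher and 0 lower.

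The promoters of genes with large differences are shown for reference, since *Meis2* encodes a transcription factor whose family binds DNA at the letters TGACAG. Windows of 300 bases, 250 before and 50 after each annotated start, were taken from RefSeq on the build GRCm38.p6, and windows of 38 of the 47 genes were used here. The windows below belong to *Ntn3* and *Slit3*, which had the largest differences above 0, and to *Nrp1*, *Robo2* and *Sema3e*, the lower receptors and the lower ligand with the larger difference. *Robo2* is shown at the annotated starts whose windows hold TGACAG. Each runs 5′ to 3′ along the gene, and capitals mark TGACAG or its reverse complement, or AGATNNAT, a form of the site that Meis proteins reach together with Pbx and Hox partners.
*Ntn3*, chr17:24209338-24209637, minus strand: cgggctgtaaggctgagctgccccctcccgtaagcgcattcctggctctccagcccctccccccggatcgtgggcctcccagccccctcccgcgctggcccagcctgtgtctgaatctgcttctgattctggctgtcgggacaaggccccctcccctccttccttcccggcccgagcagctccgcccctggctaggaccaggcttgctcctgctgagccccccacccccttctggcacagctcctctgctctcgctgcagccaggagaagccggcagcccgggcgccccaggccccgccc
*Slit3*, chr11:35121206-35121505, plus strand: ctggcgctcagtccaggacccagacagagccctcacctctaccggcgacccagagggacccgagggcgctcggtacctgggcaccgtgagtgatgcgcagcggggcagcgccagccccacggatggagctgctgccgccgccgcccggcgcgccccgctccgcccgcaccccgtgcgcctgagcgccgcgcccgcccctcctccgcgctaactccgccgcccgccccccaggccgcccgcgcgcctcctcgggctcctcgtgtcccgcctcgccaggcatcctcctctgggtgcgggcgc
*Nrp1*, chr8:128358823-128359122, plus strand: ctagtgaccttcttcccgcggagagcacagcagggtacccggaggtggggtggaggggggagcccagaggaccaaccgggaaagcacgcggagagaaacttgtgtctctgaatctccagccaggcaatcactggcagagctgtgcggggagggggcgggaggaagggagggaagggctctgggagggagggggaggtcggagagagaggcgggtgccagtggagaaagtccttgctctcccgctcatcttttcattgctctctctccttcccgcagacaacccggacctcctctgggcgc
*Robo2*, chr16:75092721-75093020, minus strand: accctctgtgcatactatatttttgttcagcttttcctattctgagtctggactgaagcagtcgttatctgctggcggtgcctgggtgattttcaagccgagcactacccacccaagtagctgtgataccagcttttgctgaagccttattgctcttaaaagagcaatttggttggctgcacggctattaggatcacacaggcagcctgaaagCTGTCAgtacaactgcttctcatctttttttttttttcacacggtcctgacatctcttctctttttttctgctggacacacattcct
*Robo2*, chr16:75447244-75447543, minus strand: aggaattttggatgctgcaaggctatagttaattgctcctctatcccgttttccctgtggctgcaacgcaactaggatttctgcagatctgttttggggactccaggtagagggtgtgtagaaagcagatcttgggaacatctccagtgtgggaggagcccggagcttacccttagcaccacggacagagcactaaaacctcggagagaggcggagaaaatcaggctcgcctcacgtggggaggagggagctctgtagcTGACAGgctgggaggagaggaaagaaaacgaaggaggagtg
*Sema3e*, chr5:14025026-14025325, plus strand: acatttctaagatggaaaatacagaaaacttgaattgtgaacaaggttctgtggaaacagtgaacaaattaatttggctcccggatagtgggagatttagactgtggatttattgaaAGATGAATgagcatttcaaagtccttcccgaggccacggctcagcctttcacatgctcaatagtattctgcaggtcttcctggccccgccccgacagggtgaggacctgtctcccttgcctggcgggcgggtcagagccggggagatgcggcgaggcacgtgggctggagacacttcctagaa

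On either strand, TGACAG stood in a window of 8 of the 38 guidance genes. By window, this was 11 of 51 (21.6%), beside 6300 of 32851 windows of all genes (19.2%). Of the genes called higher, 4 of 18 with a window held it (*Plxna2*, *Sema3g*, *Sema4a* and *Sema6c*), of those called lower 1 of 4 (*Robo2*), and of those not past the threshold 3 of 16 (*Ntn4*, *Sema4d* and *Sema7a*). In the *Robo2* windows it lay on the opposite strand at positions -37 to -32 from the start, and on the gene's own strand at 10 to 15. The motif TGATNNAT or AGATNNAT stood in 3 of 51 windows (5.88%), beside 16.2% of all windows, and among the genes called it was found only for *Sema3e*, at -133 to -126. No matches of the motifs overlapped in these windows. A match is a run of letters and no measured site, and a window without one says only that the letters are not in it. The share of G and C had a median of 68.0% (50.3 to 78.3%) in the promoters of the genes called higher. It was 65.5% (48.7 to 78.3%) in the 16 genes not past the threshold, beside 52.7% over all windows. The 4 genes called lower had a median of 52.6% (41.3 to 64.0%). A link between this share and the direction of a difference was not tested.

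Among the ligands, *Ntn3* had the largest difference. It encodes a secreted netrin of the same laminin-related family as netrin 1 and lies on chromosome 17. Its signals were 9.45 and 9.41 on the mutant arrays, against 8.14 and 8.20 on the wild-type arrays. The arrays of each genotype lay within 0.1 of each other and the genotypes did not overlap. The difference was 1.26 (SE 0.08, adjusted p = 0.00272, limma), a 2.39-fold change, and of the 19938 genes with a single symbol 56 had a larger difference above 0. It stayed between 1.18 and 1.32 in all alternatives.

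The other netrins moved less. *Ntn1*, the classical chemoattractant of commissural axons, which is also needed for fusion of the canal plates in the mouse ear, had signals of 8.62 and 8.58 on the mutant arrays, against 8.06 and 8.20 on the wild-type arrays. It rose by 0.47 (SE 0.09, adjusted p = 0.0169, limma), and the call was lost without either mutant array (adjusted p = 0.089 without replicate 1 and 0.0824 without replicate 2, limma). *Ntn4*, a basement membrane netrin, and *Ntn5* had differences of 0.28 (adjusted p = 0.0672, limma) and 0.23 (adjusted p = 0.134, limma) that were not past the threshold. Both mutant arrays lay above both wild-type arrays for all 4 netrins, as they did for 49.7% of all probe sets.

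*Slit3*, a secreted Robo ligand on chromosome 11, was the other ligand past 2-fold. Its signals were 10.39 and 10.46 on the mutant arrays, against 9.26 and 9.29 on the wild-type arrays. The difference of 1.15 (SE 0.08, adjusted p = 0.00281, limma) was far larger than the spread within either genotype and was 2.22-fold. *Slit1* rose by 0.52 (SE 0.11, adjusted p = 0.0216, limma), with signals of 7.001 and 6.91 on the mutant arrays and 6.33 and 6.55 on the wild-type arrays. *Slit2*, which together with Robo receptors keeps spiral ganglion neurons in their place in the mouse, had signals of 10.13 and 10.22 on the mutant arrays and 9.95 and 10.12 on the wild-type arrays. Its difference of 0.14 (95% confidence interval -0.11 to 0.39) was not past the threshold.

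The class 3 semaphorins, the secreted members, did not move as a group. Of 7 genes, 3 rose (42.9%) and 2 fell (28.6%), and the median difference was -0.13. Over the genes with a single symbol, 24.2% rose and 16.2% fell. *Sema3f*, which in the mouse cochlea holds type I spiral ganglion fibres back from the outer hair cell region, had signals of 10.34 and 10.38 on the mutant arrays, against 9.79 and 9.72 on the wild-type arrays. It rose by 0.60 (SE 0.08, adjusted p = 0.0073, limma). *Sema3b*, which is separated from *Sema3f* by 3 coding genes on chromosome 9, rose by 0.51 (adjusted p = 0.0174, limma), and *Sema3g*, known from blood vessels, rose by 0.32 (adjusted p = 0.0394, limma). The call of *Sema3g* was the least stable of the 25, since 8 of its 14 alternatives ended it.

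The lower class 3 genes were *Sema3a* and *Sema3e*. *Sema3a*, the founding repellent of sensory axons, had signals of 9.66 and 9.63 on the mutant arrays, against 10.08 and 10.04 on the wild-type arrays. Replicates agreed within 0.1 and the genotypes did not overlap, and *Sema3a* fell by 0.41 (SE 0.08, adjusted p = 0.0168, limma). *Sema3e*, which signals through plexin-D1 without a neuropilin in blood vessels, had signals of 8.51 and 8.34 on the mutant arrays, against 8.79 and 8.97 on the wild-type arrays. It fell by 0.46 (SE 0.11, adjusted p = 0.0298, limma). The call of *Sema3a* was lost without either mutant array, and that of *Sema3e* without either mutant array or without wild-type replicate 3 (adjusted p = 0.0718, 0.145 and 0.0862, limma).

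These genes are neighbours. *Sema3d*, *Sema3a*, *Sema3e* and *Sema3c* follow each other on chromosome 5, with 0, 3 and 15 coding genes between them in the RefSeq order. Their differences were -0.13, -0.41, -0.46 and -0.18. All 4 were below 0, but those of *Sema3d* (adjusted p = 0.507, limma) and *Sema3c* (adjusted p = 0.29, limma) were not past the threshold, and their genotypes overlapped. The remaining class 3 genes, on chromosomes 9 and 14, were the 3 that rose.

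The membrane-bound semaphorins leaned the other way, with no member called lower, beside 16.2% of the genes with a single symbol. In class 4, *Sema4a* rose by 0.48, *Sema4b* by 0.45 and *Sema4g* by 0.41 (adjusted p = 0.0122, 0.0163 and 0.021, limma). *Sema4d*, the ligand of plexin-B1, had 2 probe sets that agreed in direction, with differences of 0.32 (adjusted p = 0.0573, limma) for the brighter and 0.31 (adjusted p = 0.107, limma) for the other. *Sema4c* and *Sema4f* were not past the threshold, at 0.16 and -0.03. Genes of class 5, transmembrane proteins with thrombospondin repeats, both rose. *Sema5b*, which limits the branching of spiral ganglion fibres in the mouse, had signals of 8.59 and 8.62 on the mutant arrays, against 8.03 and 7.95 on the wild-type arrays, a difference of 0.62 (SE 0.08, adjusted p = 0.00725, limma). *Sema5a* had signals of 11.10 and 10.99 on the mutant arrays, against 10.51 and 10.45 on the wild-type arrays, a difference of 0.56 (SE 0.09, adjusted p = 0.0102, limma).

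In class 6, whose transmembrane members bind A-type plexins, 3 of 4 genes rose, beside 24.2% of the genes with a single symbol. *Sema6c* had signals of 8.74 and 8.58 on the mutant arrays, against 8.11 and 7.88 on the wild-type arrays. Its difference of 0.66 (SE 0.12, adjusted p = 0.0141, limma) was the largest among the semaphorins. *Sema6b* rose by 0.43 (adjusted p = 0.0152, limma), and its 2 probe sets carried the same values on every array, so they are 1 measurement. *Sema6a* rose by 0.36 (adjusted p = 0.0392, limma). *Sema6d* did not move detectably, with signals of 9.75 and 9.70 on the mutant arrays and 9.72 and 9.75 on the wild-type arrays, a difference of -0.01 with a 95% confidence interval of -0.21 to 0.19. *Sema7a*, the lipid-anchored ligand of plexin-C1, had a difference of 0.43 that missed the threshold (adjusted p = 0.062, limma). Its mutant arrays both lay above both wild-type arrays, as for 49.7% of all probe sets.

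**Figure D2:**
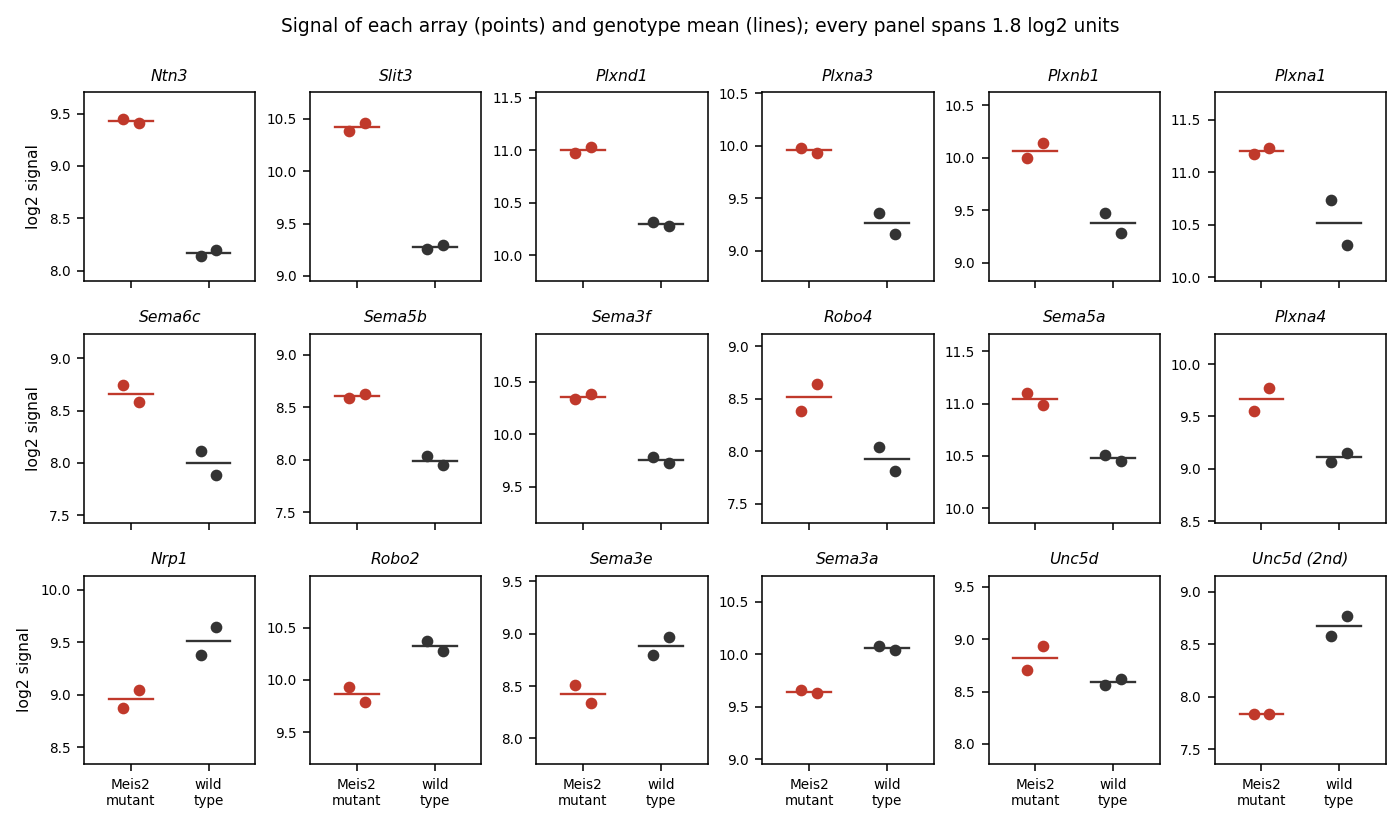
Log2 signal of each array (points) and genotype mean (lines) for the 12 guidance genes with the largest differences among those called higher, the 4 called lower, and both probe sets of *Unc5d*. In every panel the arrays labelled *Meis2* ko stand left of the wild-type arrays and the axis spans 1.8 log2 units at the gene's own level. No panel shows overlapping genotypes, and the gap is widest for *Ntn3* and *Slit3*. Over all probe sets, 49.7% had both mutant arrays above both wild-type arrays and 26.4% had them below.

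Among the receptors, the plexins moved together. Of 9 plexins 8 rose (88.9%), beside 24.2% of the genes with a single symbol. The difference of *Plxnb3* (0.22, adjusted p = 0.187, limma) was not past the threshold. The median difference of the plexins was 0.55. Both mutant arrays lay above both wild-type arrays for all 9, as they did for 49.7% of all probe sets. Plexins are large transmembrane receptors whose cytoplasmic part inactivates small GTPases of the Ras and Rap type.

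*Plxnd1*, the receptor of Sema3e and known for patterning blood vessels, had signals of 10.98 and 11.03 on the mutant arrays, against 10.32 and 10.28 on the wild-type arrays. The difference was 0.70 (SE 0.08, adjusted p = 0.00514, limma), and it was called in every alternative. The A-type plexins, co-receptors of the neuropilins, rose in all 4 cases. *Plxna3* had signals of 9.98 and 9.93 on the mutant arrays, against 9.36 and 9.16 on the wild-type arrays, a difference of 0.69 (SE 0.10, adjusted p = 0.00877, limma). *Plxna1* had signals of 11.17 and 11.23 on the mutant arrays, against 10.73 and 10.31 on the wild-type arrays, a difference of 0.68 (SE 0.16, adjusted p = 0.0275, limma). Its wild-type arrays lay further apart than those of the other plexins, with an SD of 0.30. *Plxna4* had signals of 9.55 and 9.78 on the mutant arrays, against 9.07 and 9.15 on the wild-type arrays, a difference of 0.55 (SE 0.11, adjusted p = 0.0185, limma). *Plxna2*, a receptor of class 6 semaphorins, rose by 0.35 (adjusted p = 0.0434, limma), the smallest difference among the plexins called.

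Of the B-type plexins, receptors of class 4 semaphorins, *Plxnb1* had signals of 9.995 and 10.14 on the mutant arrays, against 9.48 and 9.28 on the wild-type arrays. It rose by 0.69 (SE 0.11, adjusted p = 0.0108, limma), and *Plxnb2* rose by 0.48 (adjusted p = 0.0233, limma). *Plxnc1*, the receptor of Sema7a, rose by 0.43 (adjusted p = 0.0286, limma). *Plxna3* and *Plxnb3* lie on the X chromosome, and sex-linked genes differed between genotypes. Y-linked *Uty* had signals of 4.68 and 4.52 on the mutant arrays, against 8.07 and 7.29 on the wild-type arrays, a difference of -3.08, and *Kdm5d* (-2.58) and *Eif2s3y* (-3.49) were lower on the mutant arrays too. *Xist*, which is expressed from an inactive X chromosome, had signals of 11.83 and 11.84 on the mutant arrays and 5.54 and 11.51 on the wild-type arrays. Wild-type replicate 3 was thus the only array high for both *Xist* and Y-linked genes, with *Kdm5d* at 7.57 and *Eif2s3y* at 7.77. Over the 790 single-symbol probe sets of the X chromosome, 13.3% were higher, 22.5% were lower and the median difference was 0.04. Genotype and sex cannot be told apart here for any of the 47 genes.

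The neuropilins did not follow the plexins. *Nrp1*, the receptor of Sema3a and a co-receptor for vascular endothelial growth factor, had signals of 8.87 and 9.05 on the mutant arrays, against 9.38 and 9.64 on the wild-type arrays. The genotypes did not overlap, and *Nrp1* fell by 0.55 (SE 0.13, adjusted p = 0.0283, limma), the largest difference below 0 among the genes. The call was lost without mutant replicate 1, mutant replicate 2 or wild-type replicate 3 (adjusted p = 0.126, 0.0752 and 0.0715, limma) and held without wild-type replicate 2 (adjusted p = 0.0229, limma). *Nrp2*, the receptor of Sema3f, had signals of 10.38 and 10.39 on the mutant arrays and 10.16 and 10.26 on the wild-type arrays. Its difference of 0.17 was not past the threshold (adjusted p = 0.161, limma).

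The Robo receptors split. *Robo2*, an axonal Slit receptor, had signals of 9.93 and 9.79 on the mutant arrays, against 10.37 and 10.28 on the wild-type arrays, and fell by 0.46 (SE 0.09, adjusted p = 0.0202, limma). *Robo1*, which lies next to it on chromosome 16 with 0 coding genes between them, had signals of 11.38 and 11.31 on the mutant arrays and 11.21 and 11.08 on the wild-type arrays, a difference of 0.20 that was not past the threshold (adjusted p = 0.14, limma). The call of *Robo2* was lost without mutant replicate 1, mutant replicate 2 or wild-type replicate 2 (adjusted p = 0.0607, 0.111 and 0.0601, limma). *Robo4*, the Robo of blood vessel endothelium, had signals of 8.39 and 8.64 on the mutant arrays, against 8.04 and 7.81 on the wild-type arrays, and rose by 0.59 (SE 0.13, adjusted p = 0.0259, limma). That call was lost without mutant replicate 1, mutant replicate 2 or wild-type replicate 3 (adjusted p = 0.0514, 0.116 and 0.0748, limma). *Robo3*, its direct neighbour on chromosome 9, was dim in both genotypes, with signals of 5.69 and 5.68 on the mutant arrays and 5.39 and 5.45 on the wild-type arrays.

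Of the 5 netrin receptors, *Unc5c* alone rose by the rule used, by 0.37 (SE 0.10, adjusted p = 0.0388, limma). The call was lost under the common median, as given above, and without mutant replicate 1, mutant replicate 2 or wild-type replicate 3 (adjusted p = 0.174, 0.109 and 0.112, limma). *Dcc*, the attractive receptor, had signals of 7.36 and 7.73 on the mutant arrays and 7.23 and 7.34 on the wild-type arrays, and mutant replicate 2 lay above the other 3 arrays. Its difference of 0.26 was not past the threshold (adjusted p = 0.206, limma). *Unc5a* had the widest spread of the 47 genes, with signals of 6.66 and 7.27 on the mutant arrays and 6.49 and 6.35 on the wild-type arrays. Its difference of 0.54 (95% confidence interval -0.01 to 1.10) was not past the threshold. *Unc5b*, a netrin receptor of blood vessels, had overlapping genotypes and a difference of 0.11.

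*Unc5d* gave opposite readings. The annotation ties both of its probe sets to the same gene. The brighter one, which stands for the gene in the counts, had signals of 8.70 and 8.94 on the mutant arrays and 8.56 and 8.62 on the wild-type arrays, a difference of 0.23 (adjusted p = 0.158, limma). The other had signals of 7.83 and 7.84 on the mutant arrays, against 8.58 and 8.77 on the wild-type arrays, and fell by 0.84 (SE 0.10, adjusted p = 0.00535, limma). This second probe set was called lower in all 13 alternatives in which it could be read, with adjusted p values up to 0.04 (limma). It was the largest difference below 0 among the 50 probe sets. The mean of both probe sets differed by -0.31 (adjusted p = 0.0584, limma). Which parts of the transcript the probe sets read was not examined, so no single direction is given for *Unc5d*.

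Set side by side, ligands and the receptors they are known to bind had these differences, without a test of any pair. *Sema3a* and *Nrp1* were both lower, whereas the A-type plexins that complete that receptor were higher. *Sema3e* was lower (-0.46) and *Plxnd1* higher (0.70). *Sema3f* and *Plxna3* were higher (0.60 and 0.69), with *Nrp2* at 0.17. *Slit3* was higher (1.15), with *Robo1* at 0.20 and *Robo2* lower (-0.46). *Ntn1* and *Ntn3* were higher (0.47 and 1.26), as was *Unc5c* (0.37), with *Dcc* at 0.26, *Unc5a* at 0.54 and *Unc5b* at 0.11. The probe sets of *Unc5d* went opposite ways. Of 6 class 4 semaphorins 3 were higher and 0 lower, with *Plxnb1* and *Plxnb2* higher (0.69 and 0.48) and *Plxnb3* at 0.22. Of 4 class 6 semaphorins 3 were higher and 0 lower, with all 4 A-type plexins higher. Over the genes with a single symbol, 24.2% were higher and 16.2% lower.

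Genes that act with these families were taken as 3 lists of partners and downstream effectors. Of 52 listed genes 49 were measured, of which 11 rose (22.4%), 5 fell (10.2%) and 33 were not past the threshold. The shares were 24.2% higher and 16.2% lower over the genes with a single symbol, and 21.6% and 15.7% over all probe sets. The median difference of the partners was 0.06, beside 0.13 over the genes with a single symbol and 0.11 over all probe sets. How far they differ from the guidance genes was not tested. Of the 16 partner genes called, *Arhgef11*, *Sos1*, *Rgma* and *Lrig3* kept their call in every alternative tried, and the other 12 lost it when at least 1 of the 4 arrays was left out. Among the 22 semaphorin and plexin partners 5 rose and 0 fell, with a median of -0.0032. *Arhgef11*, which binds B-type plexins, rose by 0.94 (adjusted p = 0.00398, limma), *Dpysl5*, of the collapsin response mediator family, by 0.61 (adjusted p = 0.00857, limma), and *Gipc1*, an adaptor of neuropilin 1 and plexin-D1, by 0.45 (adjusted p = 0.0135, limma). Other members of the *Dpysl5* family, *Dpysl3* (-0.32), *Crmp1* (-0.13), *Dpysl2* (-0.08) and *Dpysl4* (-0.05), were below 0 and not past the threshold. Among the 11 Slit and Robo partners 1 rose and 3 fell, with a median of 0.02. *Srgap1*, a GTPase-activating protein downstream of Robo, rose by 0.42 (adjusted p = 0.0168, limma). The exchange factor *Sos1* fell by 0.65 (adjusted p = 0.00715, limma), *Usp33*, a deubiquitinase of Robo1, by 0.37 (adjusted p = 0.0441, limma), and *Flrt3*, a co-receptor of Robo1 that also binds Unc5, by 0.35 (adjusted p = 0.0265, limma). The calls of *Usp33* and *Flrt3* were lost whichever array was left out, and that of *Usp33* also after repeated quantile normalization (adjusted p = 0.062, limma).

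Netrin partners held the largest differences of the 3 lists, with 5 of 17 measured genes higher, 3 lower and a median of 0.15. Over the genes with a single symbol, 24.2% were higher and 16.2% lower. *Rgma*, a lipid-anchored ligand of the netrin receptor neogenin, had signals of 10.88 and 10.88 on the mutant arrays, against 9.79 and 9.59 on the wild-type arrays, a difference of 1.18 (adjusted p = 0.00335, limma). *Lrig3*, a membrane protein that opposes netrin 1 during canal formation in the mouse ear, had signals of 10.68 and 10.68 on the mutant arrays, against 9.66 and 9.55 on the wild-type arrays, a difference of 1.07 (adjusted p = 0.00313, limma). *Draxin*, a secreted protein that binds netrin 1 and Dcc, rose by 0.49 (adjusted p = 0.0293, limma), a call that shifting each array to a common median ended (adjusted p = 0.0579, limma). *Ntng1*, a membrane-anchored netrin-G counted among the 5, had 2 probe sets, with differences of 0.30 (adjusted p = 0.0375, limma) for the brighter and -0.0082 (adjusted p = 0.959, limma) for the other, and their mean was not past the threshold (0.14, adjusted p = 0.241, limma). The adaptor *Nck1*, which binds Dcc, fell by 1.07 (adjusted p = 0.0138, limma). *Pitpna*, a phosphatidylinositol transfer protein that acts under netrin receptors, fell by 0.74 (adjusted p = 0.00803, limma), and *Flrt3*, which stands in both lists, is given above.

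**Figure D3:**
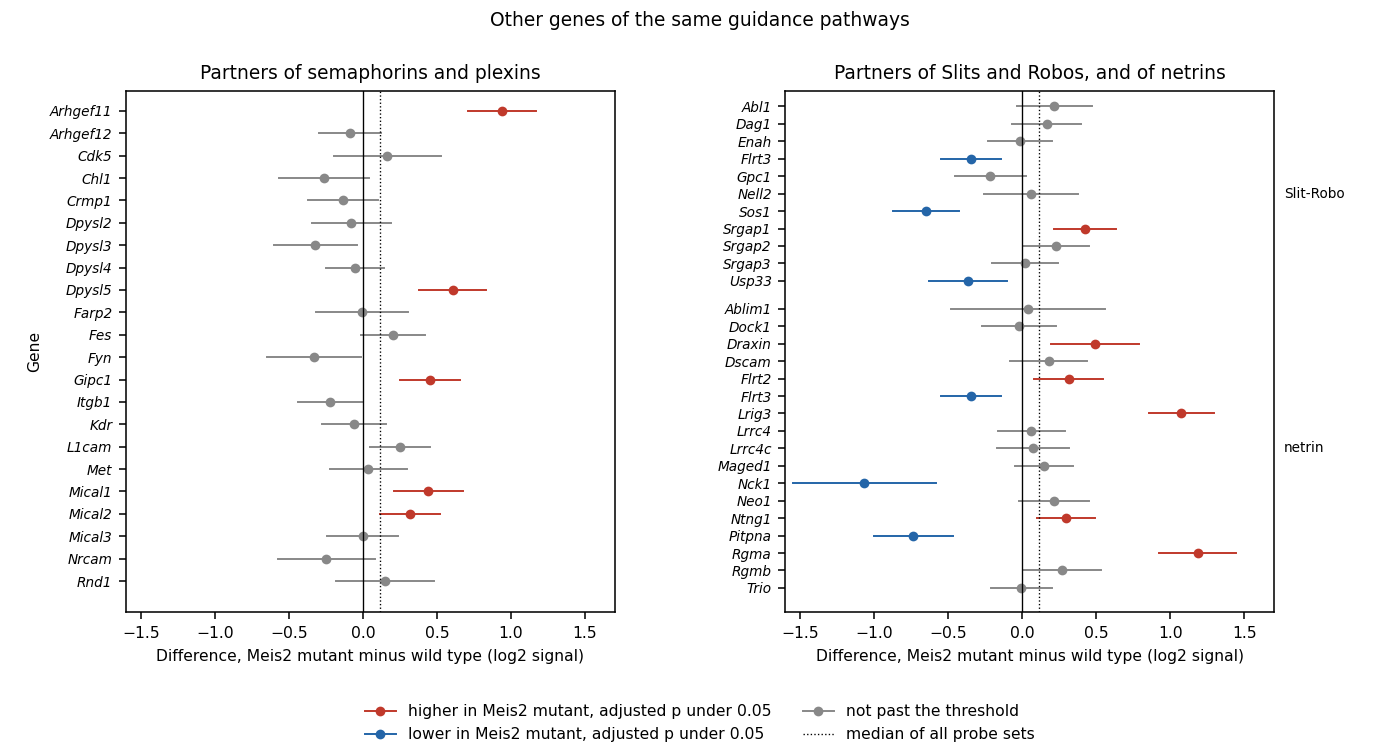
Difference between the arrays labelled *Meis2* ko and the wild-type arrays (log2 signal, mutant minus wild type) for the 22 measured partners of semaphorins and plexins (left) and the 11 of Slits and Robos and 17 of netrins (right). Points are limma estimates from 2 arrays per genotype, bars 95% confidence intervals and the dotted line the median of all probe sets. *Rgma* and *Lrig3* stand furthest to the right, at 1.18 and 1.07, and *Nck1* furthest to the left, at -1.07.

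Markers of the cells that carry these genes also differed between genotypes. In a sample of whole tissue, fewer cells of a type and less RNA per cell cannot be told apart. Over the genes with a single symbol, 24.2% were called higher and 16.2% lower. Of 15 ganglion neuron markers 0 rose and 7 fell (46.7%), with a median of -0.45, and none was dim in both genotypes. Their summed signal on the linear scale was 6819 and 6717 on the mutant arrays, against 11520 and 11700 on the wild-type arrays. The neurofilament gene *Nefl* fell by 1.63, *Neurod1* by 1.36 and *Nefm* by 1.34. *Nefl* had the highest wild-type signals of the list (11.83 and 11.86) and weighs most in the wild-type sums. Of the 15 markers, 5 had a difference above 0, none of them past the threshold. These were *Tubb3* (0.04), *Elavl3* (0.10), *Syt1* (0.0006), *Ntrk2* (0.23) and *Ntrk3* (0.09). Of 6 markers of Schwann and satellite glia 1 rose and 3 fell. Their sums were 5514 and 5739 on the mutant arrays, against 9280 and 10410 on the wild-type arrays. *Fabp7* had the highest signal of the 6 on every array, 11.36 and 11.32 on the mutant arrays, against 12.66 and 12.92 on the wild-type arrays. It weighs most in these sums, so a lower sum need not mean lower signals across the list. *Fabp7* (-1.45), *Cdh19* (-0.94) and *S100b* (-0.47) were lower, whereas *Sox10*, named after its value was seen, was higher (0.46). *Erbb3* (0.14) and *Foxd3* (0.04) were not past the threshold. Of the guidance genes known from ganglion neurons or their surroundings, *Nrp1* (-0.55), *Robo2* (-0.46) and *Sema3a* (-0.41) were lower on the same arrays. *Sema3f* (0.60) and *Sema5b* (0.62) were higher, and *Slit2*, *Robo1* and *Nrp2* were at 0.14, 0.20 and 0.17, not past the threshold. All 4 A-type plexins, co-receptors of the neuropilins, were higher too (0.35 to 0.69). No list set beforehand fixed which guidance genes are named here. The part of neurons and glia in these differences was not tested.

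Endothelial markers differed less. Of 10 markers 1 rose and 0 fell, with a median of 0.22 and sums of 10030 and 10650 on the mutant arrays, against 8664 and 9253 on the wild-type arrays. The rise was that of *Flt1* (0.48), while *Tek* had a difference of -0.44 and *Cldn5* one of 0.35, neither past the threshold. Of the guidance genes known from blood vessels, *Plxnd1*, *Robo4* and *Sema3g* were higher by 0.70, 0.59 and 0.32 on the same arrays. *Nrp1* (-0.55) and *Sema3e* (-0.46) were lower, and *Unc5b* was at 0.11 with overlapping genotypes. These guidance genes, too, were named without a list set beforehand. The part of endothelial cells in these differences was not tested. Of 9 cartilage markers 3 rose and 0 fell, with a median of 0.12, beside 24.2% higher and 16.2% lower over single-symbol genes. Of 9 markers of periotic mesenchyme 1 rose and 3 fell, with a median of -0.07, with *Col1a1* (1.26) higher and *Coch* (-1.09) and *Twist1* (-0.70) among the lower.

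Markers of skeletal muscle, a tissue outside the cochlea, were higher on the mutant arrays. Of 10 such markers 7 rose and 0 fell, with a median of 0.49 and sums of 1224 and 1643 on the mutant arrays, against 831.7 and 957.3 on the wild-type arrays. The embryonic myosin *Myh3* had the largest difference, 1.55. The 7 muscle markers that rose were 70% of the 10, beside 24.2% of the genes with a single symbol. Of 8 markers of the cochlear duct epithelium 1 rose and 3 fell, with sums of 10400 and 10740 on the mutant arrays, against 12490 and 12440 on the wild-type arrays, with *Sox2* (-1.94) and *Epcam* (-0.90) lower and *Pax2* (0.97) higher. Of 6 hair cell markers 2 rose and 1 fell. The part of these cell types in the guidance differences was not tested. Of 5 markers of the central nervous system 1 rose, and 4 were dim in both genotypes, *Olig2*, *Nkx2-2*, *Pax6* and *Gfap*. Of 6 macrophage markers 1 rose (*Cd68*, 0.62), and of 2 erythroid markers 1 rose and 1 fell.

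**Figure D4:**
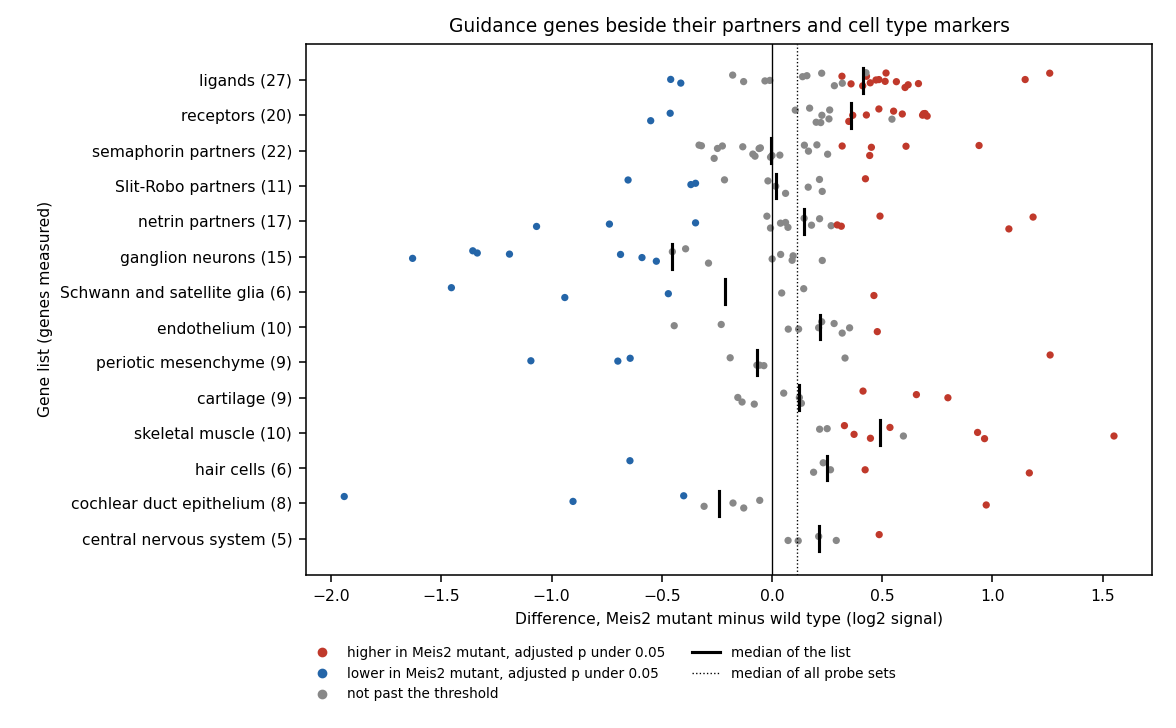
Differences between the arrays labelled *Meis2* ko and the wild-type arrays (log2 signal, mutant minus wild type) of the guidance ligands and receptors, beside their partner lists and markers of cell types that a cochlea sample can hold, with the number of genes measured in brackets. Each point is 1 gene, the black bar the median of its list and the dotted line the median of all probe sets. Ligands (0.41) and receptors (0.36) have medians to the right of the dotted line, and ganglion neuron markers (-0.45) lie to the left.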

How the data were processed

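RNA from whole E15 cochleas of 2 *Meis2* flox/flox; *Pax2* Cre/+ and 2 wild-type samples had been amplified with the WT Expression Kit and read on Affymetrix Mouse Gene 1.0 ST arrays. The deposited log2 values are those the authors computed with RMA (background correction, normalization across arrays and a summary per probe set). Besides RMA, the submitters' processing notes name mm8. Scanner files were not used here, so this step could not be repeated. Spike and control probe sets are not marked.

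Differences were fitted with limma 3.58.1 in R 4.3.3 (lmFit, eBayes, no covariate, no filter), and p-values of the 35556 probe sets were adjusted together by Benjamini-Hochberg, with calls made below 0.05. The fit rests on 2 residual and 2.91 prior degrees of freedom, and the number of arrays limits the precision. The study's methods name significance analysis of microarrays, which was not run because 2 arrays against 2 leave few relabelings. The code was tested on simulated data.

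Probe sets were named by the platform annotation. The symbols of all 47 guidance genes are current in RefSeq, which also gave chromosomes, gene order and promoter windows (GRCm38.p6). Per-array values are given for genes past the threshold in order of difference, up to 12 in each direction, and for genes discussed beside them. Guidance genes with several probe sets have all of them described. Up to 3 genes per direction are named from a partner list and up to 3 from a marker list, by size of difference. Further genes of some lists are named where they did not follow those. The members and lists were chosen with earlier results of these data known, so no p is adjusted over a list and no list was tested. As alternatives, trended or robust priors and array weights were used, arrays were scaled to a common median or quantile-normalized again, and dim probe sets (under the 95th percentile of 1205 olfactory and vomeronasal receptor probe sets) or those without a single symbol were dropped. Probe sets of a gene were also averaged, calls were made at 0.1 or for a difference beyond 1.2-fold (limma's treat), and each array was left out in turn.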

Additional observations from a re-analysis of the deposited data

How the results depend on the processing

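Under median scaling the median difference was 0.33 for ligands and 0.27 for receptors, and 7 partner genes were called higher instead of 11. Repeated quantile normalization gave a ligand median of 0.44. With a minimum difference of 1.2-fold, 7 guidance genes were higher and 0 lower, and 4 partner genes were higher and 3 lower. At an adjusted p of 0.1, 8 partner genes were lower instead of 5. Leaving out 1 array gave 4 to 19 guidance genes called higher and 0 to 3 called lower, the fewest without mutant replicate 2, and medians of 0.36 to 0.40 for ligands and 0.27 to 0.42 for receptors. For partner genes it gave 3 to 8 higher and 1 to 4 lower. The genotype that lost an array then rests on a single one, whose spread is taken from the other genotype and the prior. The number of guidance genes called lower stayed at 4 under all alternatives except the minimum difference and the omission of an array. Over all probe sets, median scaling gave 5062 higher and 6439 lower instead of 7695 and 5573.

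Few genes turned their direction, and none of them was past the threshold. *Sema6d* was at 0.0378 after repeated quantile normalization and between -0.0372 and 0.0174 with 1 array left out. *Sema4f* lay between -0.27 and 0.21 and *Sema3d* between -0.297 and 0.0394 with 1 array left out. *Unc5d* was at -0.31 when its probe sets were averaged. The causes were not tested. No paired analysis was possible because the genotypes share only replicate number 2.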
